A study of Mus musculus with 10 samples.

Results

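Tfcp2l1, Zfp42, Nr0b1, Tbx3 and Nr5a2 are 5 genes for factors of naive pluripotency, the state of the mouse embryo before implantation. They were chosen by name, and the peaks examined were those with a summit within 50 kb of the gene body. In all, 37 peaks of 5 ChIP-seq libraries met this rule, of 8819 peaks in the lists and with 5 of 21631 protein-coding genes. The cells were mouse embryonic stem cells in 2i/LIF medium, fixed with 1% formaldehyde for 5 min. Their own Sox2 or Sox15 gene carried a knocked-in HA tag, so that chromatin bound by SOX2-HA or SOX15-HA could be precipitated through the tag. There were 2 SOX2-HA libraries (replicates 1 and 2) and 3 SOX15-HA libraries (replicates 1, 2 and 3), and the question was where each factor binds. The labels name neither the clones used nor separate cultures, so the spread between replicates may be technical. No RNA was measured in these samples, so the identity of the cells could not be checked against marker genes.

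Naive pluripotency is held by a network of transcription factors that LIF signalling and the 2 inhibitors of 2i medium keep active. Tfcp2l1 encodes a grainyhead-family factor that acts downstream of LIF and STAT3. Tbx3 encodes a T-box factor downstream of LIF, and Nr5a2 (LRH-1) and Nr0b1 (DAX1) encode an orphan nuclear receptor and a corepressor-like member of that family. Zfp42 (REX1) encodes a zinc finger protein related to YY1 and is used as a reporter of the naive state. SOX2 binds DNA through an HMG box, often beside OCT4 at enhancers, and SOX15 carries a related HMG box.

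SOX2 peaks lay near all 5 genes, and SOX15 peaks near 3 of them, while 1755 of all 21631 protein-coding genes were near any SOX15 peak. Peaks of both SOX2 libraries were present within 50 kb of 4 genes (Tfcp2l1, Zfp42, Nr0b1 and Tbx3), while 14.4% of all protein-coding genes had this. Peaks of at least 2 of the 3 SOX15 libraries were near 2 genes (Tfcp2l1 and Zfp42), while 2.62% of all protein-coding genes had them. Both of these genes had both SOX2 libraries as well, a combination found at 1.5% of all genes. SOX2 replicates 1 and 2 had a peak near 4 and 5 of the 5 genes, beside 15.5% and 24.9% of all genes. SOX15 replicates 1, 2 and 3 had one near 1, 3 and 2, beside 2.29%, 5.78% and 4.26%. The genes were chosen with earlier results of these data in view, and these counts carry no test.

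**Figure D1:**
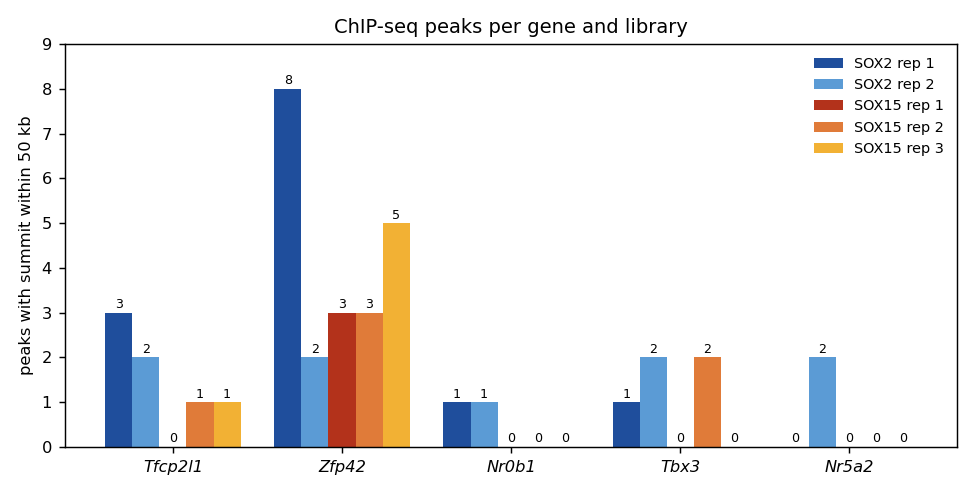
Number of peaks with a summit within 50 kb of each gene (vertical axis) in the SOX2 replicates (blue) and SOX15 replicates (red to yellow), 1 bar a library. Zfp42 has peaks in all 5 libraries, from 2 to 8, while Nr0b1 and Nr5a2 have no SOX15 peak.

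Zfp42 held the most peaks, 21 of the 37. The gene lies on the minus strand (chromosome 8, 43295067 to 43307009). SOX2 replicates 1 and 2 had 8 and 2 peaks there, and SOX15 replicates 1, 2 and 3 had 3, 3 and 5. A peak in each of the 5 libraries is found near 1.11% of protein-coding genes. These peaks fell into separate places. The strongest SOX2 site was upstream, and every SOX15 peak lay beyond the 3' end.

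The upstream site (chromosome 8, 43320559 to 43321161) had its summits 13.8 kb before the transcript start in both SOX2 libraries, 43 bp apart. Fold enrichment is the authors' ratio of signal over background at a peak, and it can be ranked only within its own list. At this site it was 16.2 in SOX2 replicate 1, at the 88.3rd percentile of that list, and 12.2 in replicate 2, at the 77.1st. Their −log10 q-values were 57.3 and 60.2. No SOX15 library had a peak at this site.

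The stretch beyond the 3' end covered 8.3 kb (chromosome 8, 43285951 to 43294250), with summits 0.991 to 8.672 kb past the end of the gene. It held 18 peaks, which merged into 6 sites where they overlapped by at least 1 bp. All 11 SOX15 peaks of the locus and 7 SOX2 replicate 1 peaks lay in it, while SOX2 replicate 2 had 0 peaks there. The only other peak on that side was a SOX2 replicate 2 peak with a fold of 5.07, farther out at 11.2 kb from the gene. The RefSeq table has no gene that overlaps the stretch, and the next gene beyond it, the pseudogene Gm2221, is 85.4 kb away.

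The strongest SOX15 peaks lay in the site from 43286804 to 43289221, which each of the 3 SOX15 libraries called. The highest fold there was 11.1 in SOX15 replicate 1, 7.27 in replicate 2 and 7.62 in replicate 3. Within their own lists these are the 65.4th, 77.2nd and 68.3rd percentiles. The peaks were broad: 1622 bp in replicate 1, 1143 bp in replicate 2 and 813 bp in replicate 3, where the median peak of these lists is 486, 255.5 and 300.0 bp wide. They rank 9th of 217, 24th of 672 and 44th of 437 by width. A narrower neighbour inside the same site had its summit at 43288894, 43288999 and 43289019 in SOX15 replicates 1, 2 and 3, and at 43289030 in SOX2 replicate 1.

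SOX2 replicate 1 had low-ranked peaks along the same stretch. Its 7 peaks there had folds of 3.74 to 6.29, between the 0.486th and 20.2nd percentile of its list, and together covered 3145 bp. The SOX15 peaks covered 2575, 1899 and 2062 bp in replicates 1, 2 and 3. Their folds ran from 5.03 to 11.1, from 4.82 to 7.27 and from 4.56 to 7.62 in that order. The weakest stood at the 10.8th percentile in SOX15 replicate 1 and the 9.5th in replicate 3, and no replicate 2 peak ranked so low. The lists hold 2676 peaks for SOX2 replicate 1 and 217, 672 and 437 for SOX15. The percentiles therefore do not compare strength between the factors. Of the 6 sites, 5 held peaks of both SOX15 and SOX2 replicate 1, and the exception (43285951 to 43286556) was called in SOX15 replicate 1 alone. Over the whole lists too, SOX2 replicate 1 overlapped more of the SOX15 peaks than replicate 2 did. Replicate 1 overlapped 59.0%, 20.5% and 56.3% of the peaks of SOX15 replicates 1, 2 and 3, and replicate 2 overlapped 34.1%, 11.5% and 43.7%, although its list was longer. Input coverage was not analysed here, and whether a signal common to these libraries other than SOX15 binding gives the peaks of the stretch was not tested. The counts and shares that rest on Zfp42 carry the same limit.

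Runs of SOX15 peaks of this kind were rare in the lists. At least 3 peaks in each of the 3 SOX15 libraries were found within 50 kb of 81 protein-coding genes (0.374%), and 66 of these had a histone gene within 50 kb. Of the other 15, 13 had SOX15 peaks within 1 kb of a gene for a small nuclear or nucleolar RNA or a related noncoding RNA. The remaining 2 were Zfp42 and Tbc1d8, a gene for a Rab GTPase-activating protein family member. Neighbouring genes share peaks, so these counts are not of independent loci, and this comparison was chosen after the values were seen.

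**Figure D2:**
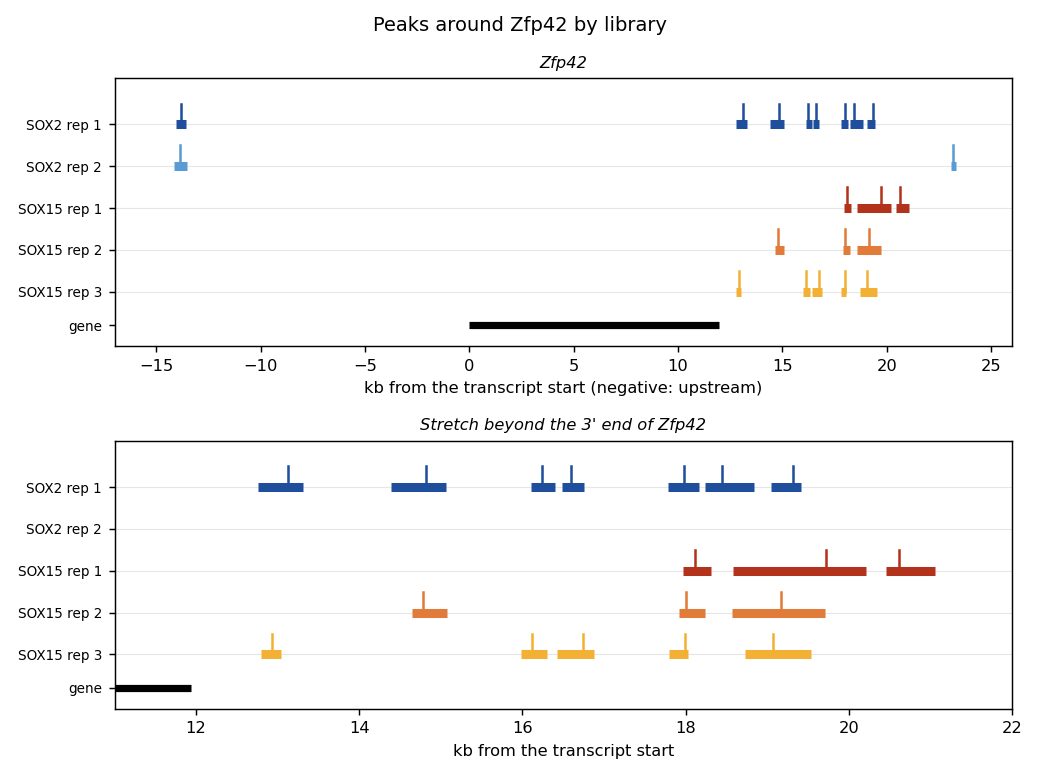
Peaks around Zfp42 by library (rows) against distance from its transcript start in kb, negative upstream; bars are peak intervals, thin stems mark summits, and the black bar is the gene. The lower panel enlarges the stretch past the 3' end, which holds peaks of the 3 SOX15 libraries and SOX2 replicate 1 and 0 of SOX2 replicate 2; the site 13.8 kb upstream has both SOX2 libraries alone.

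No library had a peak over the transcript start of Zfp42. The promoter is shown because it holds an octamer, the DNA word of OCT4 and its relatives. It is the 250 bases before the start (GRCm38.p6, chr8:43307010-43307259, minus strand, from RefSeq), with the octamer in capitals.
Zfp42: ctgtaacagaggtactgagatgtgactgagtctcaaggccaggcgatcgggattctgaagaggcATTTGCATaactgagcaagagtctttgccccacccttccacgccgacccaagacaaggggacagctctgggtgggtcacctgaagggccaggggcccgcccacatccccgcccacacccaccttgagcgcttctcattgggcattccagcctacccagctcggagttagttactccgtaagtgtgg
The octamer ATGCAAAT, here on the opposite strand as ATTTGCAT and starting 186 bases before the transcript start, is found in 1.6% of the 32851 promoter windows of the table. The SOX word CATTGTT, searched on both strands as every motif here, is in 3.29% of all windows and not in this one. Several words were searched in the promoters of the members, and of those fixed beforehand the octamer was the only match. The share of windows that match any of the words is not given here. A match is a description of the letters.

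Tfcp2l1 was the member where SOX15 peaks sat at the promoter. The gene lies on the plus strand (chromosome 1, 118627923 to 118685168) and had 7 peaks at 3 sites. At the transcript start (chromosome 1, 118627840 to 118628186), SOX15 replicate 2 had a fold of 6.9 and SOX15 replicate 3 a fold of 10.4. These are the 73.8th and 83.3rd percentiles of their lists, and rank 74 of 437 in replicate 3. SOX2 replicate 1 had a peak on the same spot with a fold of 7.22, at the 34.4th percentile, and neither SOX2 replicate 2 nor SOX15 replicate 1 had one. The 3 summits lay 53, 77 and 87 bp past the start in SOX15 replicate 2, SOX15 replicate 3 and SOX2 replicate 1.

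The promoter is printed because these peaks cover its end. It is the 250 bases before the start (GRCm38.p6, chr1:118627695-118627944, plus strand, from RefSeq), and capitals mark the 105 bases inside at least 1 peak.
Tfcp2l1: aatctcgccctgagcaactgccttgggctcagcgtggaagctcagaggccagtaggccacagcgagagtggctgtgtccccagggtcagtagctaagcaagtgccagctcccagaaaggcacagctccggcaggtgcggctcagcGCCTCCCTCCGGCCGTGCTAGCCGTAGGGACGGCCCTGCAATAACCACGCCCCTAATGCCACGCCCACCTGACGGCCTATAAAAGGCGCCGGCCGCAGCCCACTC
Of its bases 65.2% are G or C, beside a median of 52.4% over all promoter windows. None of the words searched is in it: CATTGTT for SOX, ATGCAAAT for the octamer, TCAAGGTCA for ESRRB and NR5A, GGGTGTGGC for KLF factors, and 2 copies of CCAG with 6 bases between them, as in TFCP2L1 sites. These are in 3.29%, 1.6%, 0.387%, 1.21% and 2.78% of all windows. Their absence says only that these letters are not in this window.

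SOX2 occupied separate sites at Tfcp2l1. The stronger one lay 2.3 kb before the transcript start (chromosome 1, 118625365 to 118625926), with folds of 21.9 in SOX2 replicate 1 and 21.2 in replicate 2. It ranks 138 of 2676 and 303 of 4817, the 94.9th and 93.7th percentiles, and the summits were 12 bp apart. This is the highest rank of any SOX2 peak near the 5 genes in either library. The other SOX2 site lay inside the gene 14.5 kb past the start (chromosome 1, 118642313 to 118643045), with folds of 6.2 in replicate 1 and 13.8 in replicate 2. Its place in the lists differed between the replicates, at the 18.6th and 82.3rd percentiles. Neither site had a SOX15 peak. All 7 peaks also lie within 50 kb of Clasp1, the gene of a microtubule-binding protein, which lies 18.5 kb from Tfcp2l1.

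Tbx3 (chromosome 5, 119670534 to 119684724) had 1 SOX2 site called by both libraries. Its summits at 119680021 and 119680005 lay inside the gene body, 16 bp apart, and 9.49 and 9.47 kb from the lower end of the gene. The fold was 5.97 in SOX2 replicate 1 and 18.2 in replicate 2, which puts it at the 14.8th and the 90.9th percentile of the lists. Of 2377 pairs of overlapping SOX2 peaks in the lists, 1.26% differed in percentile by as much as these 76.1 points. The median pair differed by 17.3 points.

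SOX15 replicate 2 had peaks beside this site and the other SOX15 libraries had none. They had folds of 5.91 and 4.6, the 62.2nd and 32.7th percentiles, with summits at 119680364 and 119680827. The first overlapped the end of the SOX2 replicate 2 peak, and the second overlapped no SOX2 peak. One further peak, of SOX2 replicate 2 alone, lay 36.3 kb above the gene (fold 4.2, at the 1.83rd percentile). The peaks are also close to lncRNA genes: Tbx3os1 and Tbx3os2 lie within 50 kb of all 5 of them, and Gm16064 and Gm16063 of 4. The promoter table holds no entry for Tbx3 and so no strand, and exons are not given.

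Nr0b1 (chromosome X, 86191775 to 86195947, plus strand) had 1 site, called by both SOX2 libraries. It lay inside the gene (86193501 to 86193902), with summits 1.91 and 1.92 kb past the transcript start and 18 bp apart. The fold was 6.88 in SOX2 replicate 1 and 9.28 in replicate 2, the 29.1st and 59.5th percentiles. SOX15 libraries had no peak within 50 kb, a pattern of calls that 11.2% of protein-coding genes share.

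Nr5a2 (chromosome 1, 136842562 to 136960448, minus strand) was the only one of the 5 without a site in both SOX2 libraries. SOX2 replicate 2 had 2 peaks inside the gene, with folds of 6.14 and 4.73, at the 19.5th and 4.16th percentiles. Peaks of SOX2 replicate 2 alone are found near 9.69% of protein-coding genes. The weaker peak lay just before the second of the RefSeq transcript starts, with its summit 265 bp from that start, and the other lay 13.7 kb past it. The promoter of that start is printed because the peak covers most of it (GRCm38.p6, chr1:136953631-136953880, minus strand, from RefSeq). Capitals mark the 169 bases inside the peak.
Nr5a2, second start: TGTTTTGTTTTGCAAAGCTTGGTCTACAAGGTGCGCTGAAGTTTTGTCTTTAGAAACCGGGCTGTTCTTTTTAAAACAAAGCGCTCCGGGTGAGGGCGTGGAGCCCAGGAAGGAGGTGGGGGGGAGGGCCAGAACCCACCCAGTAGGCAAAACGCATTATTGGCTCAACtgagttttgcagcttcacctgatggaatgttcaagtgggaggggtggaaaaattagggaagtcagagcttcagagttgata
It holds none of the words listed for Tfcp2l1. The SOX-like word AACAAAG, which was added after the sequence was seen, starts 176 bases before the start and is in 5.03% of all windows. The promoter of the first start, and that of Nr0b1, had no peak and no match.

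**Figure D3:**
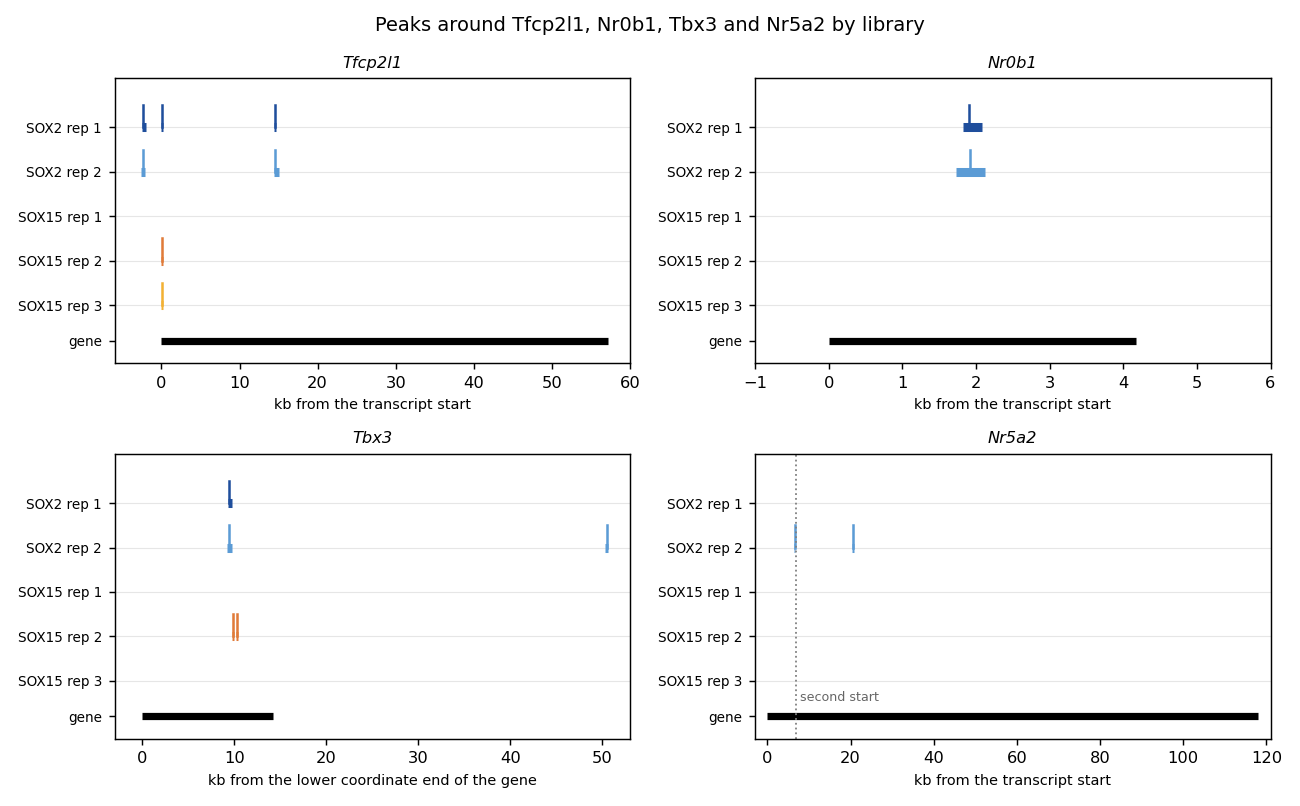
Peaks around Tfcp2l1, Nr0b1, Tbx3 and Nr5a2 by library (rows) against kb from the transcript start, or from the lower end for Tbx3, whose strand is not given; bars are peak intervals, stems mark summits, black bars are genes. SOX15 peaks sit at the start of Tfcp2l1 and, in replicate 2 alone, inside Tbx3.

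The SOX2 replicates differed in how they met SOX15 at these loci. The 37 peaks merged into 17 sites, of which 5 had both SOX2 libraries and 4 of those had no SOX15 peak (the exception is Tbx3). Counted by gene, 3119 of all protein-coding genes had both SOX2 libraries within 50 kb, and 2414 of these had no SOX15 peak. By the same count, 4 of the 5 genes had both SOX2 libraries, and 1 of these, Nr0b1, had no SOX15 peak. The count by site was not made over all genes and cannot be set beside these. Genes with both SOX2 libraries and no SOX15 peak are thus common in these lists, and the difference from the 5 genes was not tested. Only 2 of the 17 sites had at least 2 SOX15 libraries, at the Tfcp2l1 start and past the 3' end of Zfp42. Each of them had a peak of SOX2 replicate 1 and none of replicate 2. Of 9 sites with any SOX15 peak, 7 had SOX2 replicate 1 and 1 had SOX2 replicate 2. Of those 7, 5 lay in the single stretch past the 3' end of Zfp42, so they are not separate loci. Another was the Tbx3 site, where the SOX15 peak overlapped the SOX2 replicate 2 peak and not that of replicate 1. At the 5 sites of both SOX2 libraries the summits were 12 to 43 bp apart, beside a median of 22 bp over the 2377 overlapping pairs of the lists. The lists hold no coverage, so binding too weak for the peak caller cannot be told apart from none.

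**Figure D4:**
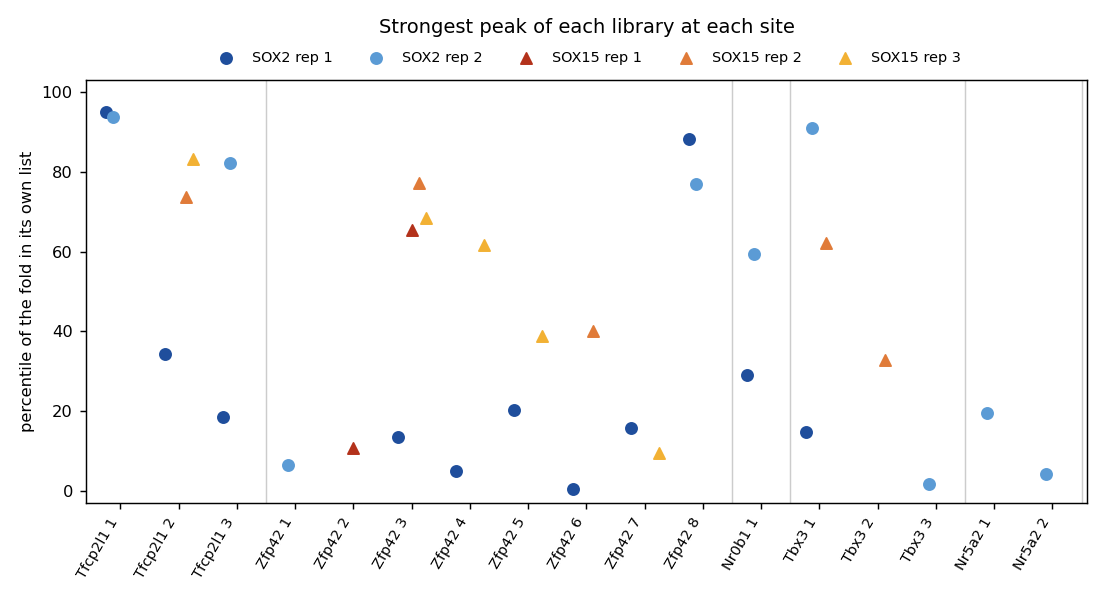
Percentile of the fold within its own list (vertical axis) for the strongest peak of each library at each of the 17 sites, numbered along the chromosome within a gene; circles are SOX2 and triangles SOX15 libraries. The sites with both SOX2 circles high, Tfcp2l1 site 1 and Zfp42 site 8, have no triangle, and Tbx3 site 1 has SOX2 circles at 14.8 and 90.9.

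The libraries differed in opposite directions by number and by share of peaks. SOX2 replicates 1 and 2 had 13 and 9 peaks near the 5 genes, and SOX15 replicates 1, 2 and 3 had 3, 6 and 6. The means were 11 ± 2.83 (SD, n = 2) for SOX2 and 5 ± 1.73 (SD, n = 3) for SOX15 (two-sided exact permutation test, p = 0.1, the smallest that 10 splits allow). As a share of each list, the values were 0.486% (Wilson 95% interval 0.284 to 0.829) of 2676 peaks and 0.187% (0.0983 to 0.355) of 4817 for SOX2. For SOX15 they were 1.38% (0.471 to 3.99) of 217, 0.893% (0.41 to 1.93) of 672 and 1.37% (0.631 to 2.96) of 437. The mean share was 0.336% ± 0.211 (SD, n = 2) for SOX2 and 1.22% ± 0.28 (SD, n = 3) for SOX15, and the groups did not overlap (exact permutation test, p = 0.1). The intervals cover counting error only and take each peak as independent. Of the peaks counted, 11 SOX15 and 7 SOX2 replicate 1 peaks came from the 8.3 kb stretch past the 3' end of Zfp42.

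Zfp42 made most of the difference in share. Without it the shares were 0.187% and 0.145% for SOX2. They were 0.446% and 0.229% for SOX15 replicates 2 and 3, and SOX15 replicate 1 had 0 of 217 peaks, which allows a share of up to 1.38% when 3 counts are taken as the limit (Wilson upper bound 1.74%). The groups then overlapped, and the difference of the means fell from -0.88 to -0.06 percentage points (exact permutation test, p = 0.7).

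Other genes of naive pluripotency were mostly near SOX2 peaks too, and 5 of 18 were near any SOX15 peak. Of all 21631 protein-coding genes, 1755 were near any SOX15 peak. Differences from the 5 members were not tested. Of the 18 genes, 16 had both SOX2 libraries within 50 kb, and 1, Esrrb, had at least 2 SOX15 libraries. These are 88.9% and 5.56% of the list, beside 14.4% and 2.62% of all protein-coding genes. Esrrb encodes an orphan nuclear receptor of the same network, and its highest folds were 38.1 and 35.6 for SOX2 and 7.67, 6.27 and 6.47 for SOX15 replicates 1, 2 and 3. Klf2, Nanog, Tdh and Tet2 had peaks of 1 SOX15 library each, and 13 genes had none. Among the latter was Prdm14, a repressor of differentiation genes, with SOX2 folds of 18.5 and 31.0. The median over the 18 genes of the highest percentile was 65.0 and 83.5 in SOX2 replicates 1 and 2, beside 29.1 and 77.1 over the 5 members and 0 over all protein-coding genes.

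Family relatives of the members were also counted, 19 in all. Of these, 4 had both SOX2 libraries (Tfcp2, Yy2, Mga and Nr5a1), and 1, Tfcp2, had at least 2 SOX15 libraries. These are 21.1% and 5.26% of the relatives, beside 14.4% and 2.62% of all protein-coding genes. The difference was not tested. Tfcp2, the gene of the close relative of TFCP2L1, had SOX2 folds of 7.51 and 10.6, and SOX15 folds of 7.21 and 5.96 in replicates 2 and 3. Mga, whose protein joins a T-box to a MAX-binding domain, had SOX2 folds of 17.2 and 28.0. Nr5a1, the relative of Nr5a2, had 5.04 and 10.0. Yy1 had 1 SOX15 replicate 2 peak (fold 7.89) and no SOX2 peak. Of 10 T-box genes apart from Tbx3, Tbx20 had SOX2 replicate 1 alone and 8 had no peak.

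Of 15 genes of the formative and primed states, which follow the naive state, 6 had both SOX2 libraries and 0 had at least 2 SOX15 libraries. These are 40% and 0% of the list, beside 14.4% and 2.62% of all protein-coding genes. The SOX2 folds were 24.6 and 23.0 near Foxd3, and 14.1 and 24.3 near Zic5. Otx2, Zic2 and Zic5 had peaks of 1 SOX15 library each. Zic2 and Zic5 had equal highest folds in SOX15 replicate 3 (6.13) and SOX2 replicate 1 (14.1), so they may not be separate loci in these counts.

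**Figure D5:**
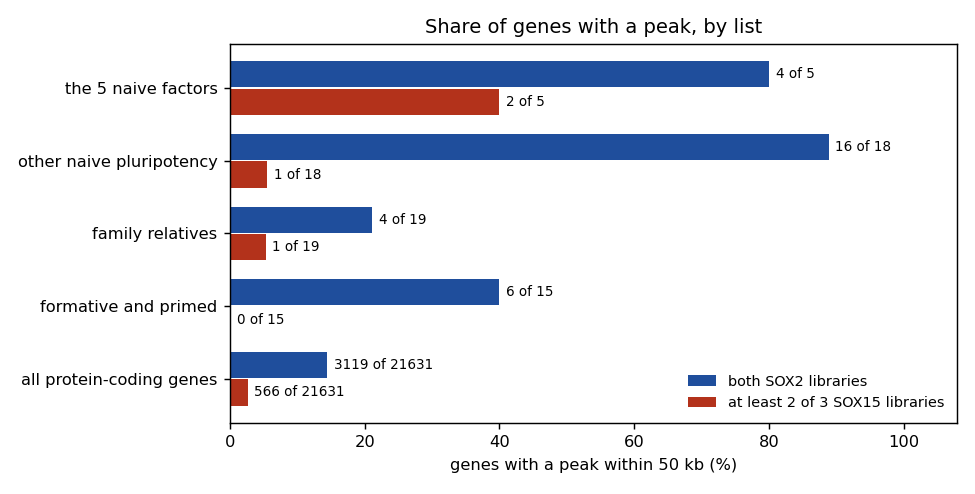
Share of genes (horizontal axis, percent) with a peak within 50 kb in both SOX2 libraries (blue) and in at least 2 of 3 SOX15 libraries (red), for the 5 naive factors, 3 lists and all protein-coding genes; counts stand beside the bars. The naive lists stand at 80% and 88.9% for SOX2, beside 14.4% of all genes.

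The genes most like each member were found by the Euclidean distance between 5 values, the percentile of the strongest peak within 50 kb in each library, with 0 for none. For Tfcp2l1 they were Ubb (distance 24.3), Ptma and Pde6d (27.7 each). Ptma and Pde6d have equal values because they share peaks. For Zfp42 they were Zmynd8 (20.1), Btn2a2 (22.7) and H2ac24 (26.9), which also had peaks in all 5 libraries. For Tbx3 they were Ptprg (13.9), Tbc1d24 (16.1) and Nfkbia (21.5), with SOX15 peaks in replicate 2 alone. Ryr3, Slc5a1 and Snx2 were nearest to Nr0b1, at distances of 2.31 to 3.13. For Nr5a2 the nearest were Prtg, Olfr224 and Olfr325, matched on 1 SOX2 value.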

How the data were processed

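The 10 samples are 5 ChIP and 5 input libraries, grouped by title; the 5 ChIP peak lists were analysed, and input values were not analysed here. The submitters' processing notes name Bowtie2, MACS2, deepTools and mm10 and no version. There is 1 list for each sample, so calling was per library. Per the file layout, the authors deposited for each peak a fold enrichment (a linear ratio), a −log10 p-value and a −log10 q-value, an integer score (in all lists the whole part of 10 times −log10 q) and a summit offset. The use of inputs as control is not stated in the sources used here. The lists hold 2676 and 4817 (SOX2) and 217, 672 and 437 (SOX15) peaks, with minimum −log10 q of 2.10, 2.20, 2.76, 2.03 and 1.31, and no read counts, so depth is unknown.

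Gene positions are RefSeq's for GRCm38.p6, whose coordinates are those of mm10. Transcript starts and strands came from the RefSeq promoter table, which matched 4 of the 5 genes; it gives 50 bases after each start, and only the 250 before were searched and printed. Summits within 50 kb of a gene body were assigned to it. Peaks were merged at 1 bp overlap. Percentiles are ranks of fold within a list, with the weakest lowest. The 5 members were always named; list genes were named when they had a SOX15 peak or were among the 4 with the highest SOX2 percentiles, and 3 genes per member by likeness. Of 53 list entries, 52 distinct genes remained, since Oct6 and Pou3f1 are 1 gene. Members and lists were chosen with earlier results of these data known. The one test across libraries was a two-sided exact permutation test of means. The functions that assign and merge peaks were tested on simulated peaks. Software was pandas 2.3.3, numpy 2.4.6, scipy 1.17.1 and matplotlib 3.10.9 under Python 3.11.15.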

Additional observations from a re-analysis of the deposited data

How the results depend on the processing

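The number of genes with both SOX2 libraries stayed between 3 and 5 (4 in the report) at distances of 10, 25 and 100 kb, with the nearest gene alone, with any overlap of the window, with −log10 q of at least 5 or of at least 2.76, with a fold of at least 5, and without any 1 library. The number with at least 2 SOX15 libraries was 2 under these settings, 1 when all 3 were required (Zfp42), 3 when any 1 sufficed, and 1 to 2 without 1 library in turn: Tfcp2l1 is lost without SOX15 replicate 2 or replicate 3. At 10 kb the number with both SOX2 libraries was 3, without Zfp42, whose SOX2 replicate 2 peaks lay 11.2 and 13.8 kb away. Zfp42 then no longer had peaks of all 5 libraries. The number of sites called in both SOX2 libraries was 5 to 11 without 1 library. Without SOX2 replicate 1 or 2 the remaining library alone decides (9 and 11 sites). The number of such sites was 5 under each of the other rules of merging, 4 at 10 kb and 7 at 100 kb. The SOX2 minus SOX15 difference kept its sign in every alternative run, for the number of peaks (4 to 8) and for the share. With all 5 libraries, the exact permutation p for the number rose from 0.1 to 0.3 at 10 kb, where SOX2 replicate 2 had 6 peaks, as had SOX15 replicates 2 and 3. For the share it rose to 0.2 with −log10 q of at least 5 or 2.76 and with a fold of at least 5, where no SOX2 share reached a SOX15 share. Leaving out Zfp42, which was chosen after seeing the data, moved the difference in share most, to -0.06 percentage points. Libraries share replicate numbers 1 and 2 only as labels; with the replicate block the differences were 6.5 peaks and -0.80 percentage points. With 2 and 3 libraries no test could pass 0.05. Motifs around the summits, planned at both window sizes, were not searched for want of a genome sequence. Depth is unknown, and its effect on which sites were called was not tested.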

Other observations

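Between 50 and 100 kb from the genes, the nearest peaks were 85.3 kb away. SOX15 replicates 1 and 2 shared a site 91.8 kb above Tfcp2l1 (chromosome 1, summits 118776980 and 118776962, folds 6.48 and 4.18), and SOX2 replicates 1 and 2 shared 2 sites below Tbx3. The nearer of these lay 85.4 and 85.3 kb away with folds of 8.54 and 7.49, and the farther 90.3 and 90.7 kb away with folds of 3.61 and 11.1. The farthest peak inside the limit was that of SOX2 replicate 2 at 36.3 kb from Tbx3, with a fold of 4.2.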
